A study of Mus musculus with 2 samples.

Results

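Solute carrier genes, whose symbols start with Slc and a number, were measured in single microglia sorted from mouse spinal cord. The 109 genes described here were chosen by their measured abundance, as all symbols of this form with at least 100 transcript counts over both libraries together. The count tables held 376 genes with such a symbol. Of these, 261 fell under the limit, 68 of them with 0 counts, and 6 more (Slc2a1, Slc2a5, Slc7a11, Slc11a1, Slc11a2 and Slc40a1) were left out by the rule. The members just inside the limit were Slc35a2 with 102 counts and Slc2a9 and Slc10a3 with 101 each, and the genes just outside it were Slc25a32 with 98, Slc25a39 with 97 and Slc30a6 with 95. Of the members, 3 carry the name without being carriers: Slc9a3r1 encodes the scaffold protein NHERF1, Slc4a1ap encodes kanadaptin, and Slc7a6os is the neighbor of Slc7a6 on the opposite strand.

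The study asked how loss of 4E-BP1, a repressor of cap-dependent translation, alters microglia. The control library came from mice that the labels call WT and the study's legend gives as Eif4ebp1 fl/fl, and the 4E-BP1–cKO library from Eif4ebp1 fl/fl:TMEM119 CreERT2 mice, in which tamoxifen-inducible Cre runs from the Tmem119 promoter. All mice were male, were 8 to 10 weeks old and had been given 4-OHT in the first days after birth (P4 to P9), and the cells were CD45lo CD11Bhi CX3CR1hi. Each genotype was 1 library, and no source used here gives the number of mice behind it, so the libraries have no replicate check, and genotype cannot be told apart from any other difference between the 2 preparations.

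Solute carriers are membrane proteins that move ions, sugars, amino acids, nucleotides, metals and other small molecules by exchange, cotransport or facilitated diffusion. In microglia they feed the cell with amino acids and vitamins, set calcium, chloride and pH, and empty lysosomes of the products of digested debris. Several depend on partners: the heavy chain CD98hc brings the light chains of the Slc7 family to the surface, and lysosomal amino acid transporters report to the kinase mTORC1, which phosphorylates 4E-BP1.

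After barcodes with 300 or fewer detected genes or at least 5% mitochondrial counts were removed, 1147 control and 445 4E-BP1–cKO cells remained, with 4803562 and 1734332 unique molecular identifiers (UMIs, 1 per captured transcript). The median cell held 3053 UMIs in the control and 2776 in the 4E-BP1–cKO library, and no cell barcode was shared. Levels are given as CPM, the UMIs of a gene scaled to the total of its library, where a single UMI is worth 0.208 CPM in the control and 0.577 in the 4E-BP1–cKO library. All 8 microglial markers were detected, summing to 9404 and 9043 CPM, and 16 cells carried at least 3 markers of another cell type. Ribosomal protein genes took 5.15% of UMIs in the control and 6.11% in the 4E-BP1–cKO library. Eif4ebp1 had 19.8 CPM in the control and 29.4 in the 4E-BP1–cKO library, but the allele is assayed at exon 2 and the reads come from the 3′ end, so this level does not check the deletion. Ratios below carry exact Poisson 95% intervals, which cover counting error alone.

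The members held 78411 UMIs, or 1.20% of all UMIs, and none was at 0 in either library. Their median was 300 UMIs, beside 309 for all 7184 genes with at least 100 UMIs. Counts come from the 3′ end and were not divided by gene length, so the order of genes below is an order of captured transcripts. Slc8a1, the plasma membrane sodium-calcium exchanger NCX1, stood first with 12176 UMIs, which was 15.5% of all member UMIs and rank 34 among all genes. It was followed by Slc9a9, the endosomal sodium-proton exchanger NHE9, with 5605 UMIs, and by Slc15a3, an endolysosomal peptide-histidine transporter, with 4783. Next came Slc38a2, a sodium-coupled importer of neutral amino acids, with 4372 UMIs and Slc16a10, a transporter of aromatic amino acids, with 3334. These 5 genes made up 38.6% of the member UMIs. In all, 20 members passed 1000 UMIs, and 17 ranked among the 1000 most abundant genes. The leading levels were not set by a few cells: the 1% of cells with the most Slc8a1 held 8.35% of its UMIs, and for Slc38a2 this share was 5.67%. It was higher for some rarer members, at 48.6% for Slc2a3, the glucose transporter GLUT3, and 29.1% for Slc38a6.

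**Figure D1:**
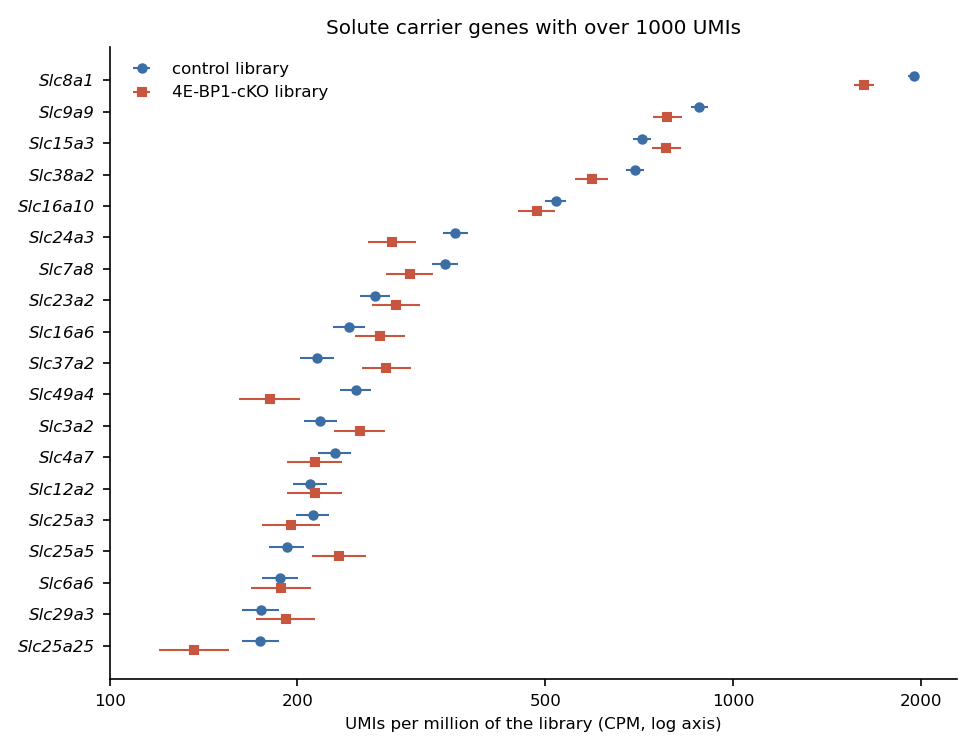
Level of 19 of the 20 solute carrier genes with over 1000 UMIs, in CPM on a log axis, in the control library (circles) and the 4E-BP1–cKO library (squares). Bars are exact Poisson 95% intervals, and Slc8a1 stands apart at 1949 and 1623 CPM.

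By cargo, 2 classes held the largest shares of member UMIs. The 8 carriers of sodium, potassium, calcium and chloride took 25.1% (exact binomial interval 24.7 to 25.5) of member UMIs in the control and 22.8% (22.2 to 23.4) in the 4E-BP1–cKO library. Without Slc8a1 these shares were 10.9% and 9.86%. The 18 amino acid carriers took 22.6% (22.28 to 22.95) and 22.3% (21.7 to 22.8), spread over more genes. The 5 acid and base carriers took 10.4% and 10.2%, the 20 mitochondrial carriers of the Slc25 family 9.28% and 9.70%, and the 3 peptide transporters 7.10% and 7.96%. The 14 metal carriers, mostly importers and exporters of zinc, took 4.49% and 4.45%. By membrane, 44 members are placed in the plasma membrane, 20 in mitochondria, 17 in the endoplasmic reticulum or Golgi and 11 in endosomes or lysosomes, and 17 were not assigned. The 20 placed in mitochondria are not the same genes as the 20 of the Slc25 family. They include the sodium-calcium exchanger Slc8b1, and a member of the Slc25 family is among those not assigned. The 11 endolysosomal genes took 19.5% of member UMIs in the control and 19.9% in the 4E-BP1–cKO library, led by Slc9a9 and Slc15a3.

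Within families the members were used unequally. Slc8a1 had 90.9 times (74.9 to 111) the UMIs of its relative Slc8a2 in the control library and 58.6 times (44.1 to 79.7) in the 4E-BP1–cKO library. Slc15a3 had 8.26 times (7.46 to 9.17) the UMIs of Slc15a4 in the control and 11.2 times (9.29 to 13.6) in the 4E-BP1–cKO library. Slc25a5, the ADP/ATP carrier ANT2, had 3.21 times the UMIs of Slc25a4, the carrier ANT1, in the control and 3.09 times in the 4E-BP1–cKO library, a ratio that was alike in both. Slc3a2, the CD98hc heavy chain, was outnumbered by 1 of the 4 light chains it can pair with here, Slc7a8 (LAT2), with 0.63 Slc3a2 UMIs for each Slc7a8 UMI in the control and 0.83 in the 4E-BP1–cKO library. Taken alone, Slc7a5 (LAT1), which takes up leucine, was outnumbered by Slc3a2 by 2.30 times in the control and 2.77 times in the 4E-BP1–cKO library. Each ratio sets Slc3a2 against 1 light chain. Since Slc7a8 alone outnumbered it, the 4 light chains together did so too.

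Most members differed little between the libraries. The log2 ratio of 4E-BP1–cKO to control, computed with 1 CPM added, had quartiles of -0.31 and 0.13 over the members and a median of -0.10, beside a median of -0.03 over all genes with at least 100 UMIs. The ratio was above 1 for 44 members (40.4%), beside 45.2% of all genes. With a limit of 1.5-fold and an interval that leaves out 1, 2 members were higher in the 4E-BP1–cKO library (1.83%), beside 2.06% of all genes. With the same limit 3 were lower (2.75%), beside 4.91% of all genes. Intervals that left out 1 at any size were found for 31 members (28.4%, beside 27.2%), of which 9 lay above 1 and 22 below. Of all 7184 genes with at least 100 UMIs, 796 lay above 1 and 1159 below, so more lay below there too. The share of members past the limit was thus not above that of all genes. The count of lower members depended on the setting, with 15 when each cell's CPM was averaged and 28 when ratios were averaged over the 9 clusters. The share of all genes past the limit is not given for these settings, so the 2 counts cannot be set against it. The average over clusters gives each the same weight, though the 4E-BP1–cKO cells of cluster 8 held 30085 UMIs in all. The part of this low depth in the count of 28 was not tested.

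The 2 members past the limit upward had few counts. Slc9a3r1, the scaffold NHERF1 that tethers transporters and receptors to ezrin, had 110 UMIs in the control and 70 in the 4E-BP1–cKO library, or 22.9 and 40.4 CPM, a ratio of 1.76 (1.29 to 2.40). Slc31a2, a copper transporter of endosomes, had 86 and 53 UMIs, or 17.9 and 30.6 CPM, a ratio of 1.71 (1.19 to 2.43). Of the 3 lower members, Slc1a3 encodes the glutamate transporter GLAST, best known from astrocytes. It had 470 and 108 UMIs, or 97.8 and 62.3 CPM, a ratio of 0.64 (0.51 to 0.79). The 6 astrocyte markers together had 9.58 CPM (46 UMIs) in the control and 10.96 CPM (19 UMIs) in the 4E-BP1–cKO library. Of these, Aldh1l1, Gja1 and Gjb6 were at 0 in the control, and Gjb6 in the 4E-BP1–cKO library. The part of astrocyte RNA in the Slc1a3 ratio was not tested. When each cell's CPM was averaged instead of summing UMIs, the log2 ratio of Slc1a3 was -0.22, which is no longer past the limit. Slc38a6, of the sodium-coupled neutral amino acid family, had 51.8 and 28.8 CPM (0.56, 0.40 to 0.76), and Slc25a12, the mitochondrial aspartate-glutamate carrier aralar, 29.8 and 16.7 CPM (0.56, 0.36 to 0.84).

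**Figure D2:**
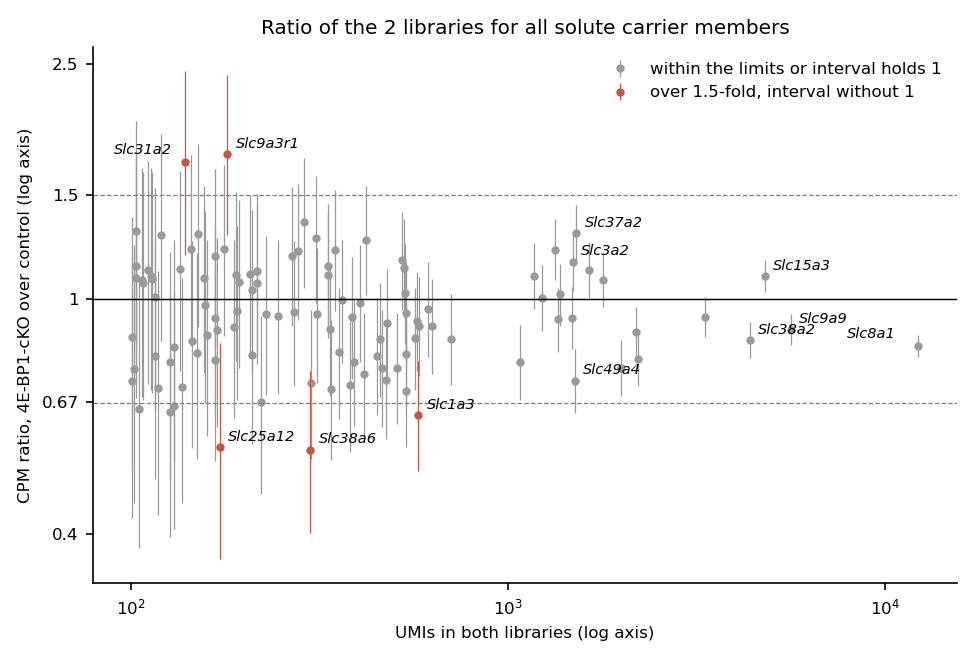
Ratio of CPM in the 4E-BP1–cKO over the control library (log axis) against the UMIs of both libraries (log axis) for 109 solute carrier genes, with exact Poisson 95% intervals. The 5 members over 1.5-fold with an interval that leaves out 1 are in red, and all of them have under 1000 UMIs.

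Among the 68 members with at least 200 UMIs, the 5 highest ratios were all under 1.5. Slc25a37, the mitochondrial iron importer mitoferrin-1, had a ratio of 1.35 (1.04 to 1.73) and Slc37a2, a glucose-6-phosphate exchanger of the endoplasmic reticulum, 1.29 (1.16 to 1.44). Slc1a5, the glutamine transporter ASCT2, had 1.27 (0.99 to 1.62), and the ADP/ATP carriers Slc25a4 and Slc25a5 had 1.26 (1.02 to 1.55) and 1.21 (1.08 to 1.37). The 5 lowest were Slc38a6, Slc1a3, Slc35e2 with 0.67, the zinc importer Slc39a10 with 0.70 (0.56 to 0.87) and Slc36a1, which exports amino acids from lysosomes, with 0.71 (0.53 to 0.92). The most abundant members had narrow intervals, and those of Slc8a1, Slc9a9 and Slc15a3 left out 1. Slc8a1 went from 1949 to 1623 CPM (0.83, 0.80 to 0.87), Slc9a9 from 884 to 785 CPM (0.89, 0.83 to 0.94), and Slc15a3 from 714 to 781 CPM (1.09, 1.03 to 1.17). Next in abundance, Slc38a2 had a ratio of 0.85 (0.79 to 0.91), Slc16a10 0.93 (0.86 to 1.01) and Slc24a3 0.79 (0.71 to 0.87). Slc38a9, the lysosomal arginine sensor upstream of mTORC1, had a ratio of 0.73 (0.58 to 0.92), whereas the leucine carrier pair Slc3a2 and Slc7a5 had 1.16 (1.03 to 1.30) and 0.96 (0.80 to 1.16). When ratios were averaged within clusters, the direction turned for Slc1a5 (log2 -0.34), Slc25a5 (-0.06) and Slc9a9 (0.02). That average gives each cluster the same weight. In cluster 8, Slc25a5 had 1 UMI in the 4E-BP1–cKO library and 19 in the control.

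Summed by class, carriers of sodium, potassium, calcium and chloride had 3069 CPM in the control and 2581 in the 4E-BP1–cKO library, a ratio of 0.84 (0.81 to 0.87), with 6 of the 8 genes below 1. Summed amino acid carriers had a ratio of 0.91 (0.88 to 0.94) and mitochondrial carriers 0.97 (0.92 to 1.02). By membrane, endoplasmic reticulum and Golgi members had 1.11 (1.04 to 1.18), but only 9 of these 17 genes lay above 1, with a median log2 ratio of 0.09. The most abundant of them, Slc37a2, had a ratio of 1.29, and the sum without it is not given. Plasma membrane members had 0.90 (0.88 to 0.92), with 16 of the 44 genes above 1.

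The ratio also moved with gene length. The median log2 ratio was 0.10 for the 34 members that span under 20 kb of the genome, -0.10 for the 45 of 20 to 60 kb and -0.24 for the 30 of at least 60 kb. Over all genes with a known span the same medians were 0.10, -0.04 and -0.14. Across the 109 members Spearman's rho between span and log2 ratio was -0.32, and across 6963 genes -0.34, both across genes of the same 2 libraries, which are not independent replicates. The long Slc8a1, which spans 365 kb, and Slc9a9, which spans 561 kb, were among the lower members. Whether intronic reads were counted is not stated in the sources used here, and the part of gene length in these ratios was not tested.

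Clustering of the cells gave 9 groups, described by number, which fell into 2 kinds. In clusters 1, 2, 7 and 8 ribosomal protein genes took a median of 1.16% to 1.31% of a cell's UMIs, and in the other 5 clusters between 4.21% and 18.4%. The ribosome-poor clusters held 632 cells of the control and 198 of the other library. Members took more of the UMIs in the ribosome-poor cells, with 1.46% against 1.10% in the control and 1.39% against 1.03% in the 4E-BP1–cKO library. Among clusters the share ran from 0.682% in cluster 9, the 43 cells richest in ribosomal protein RNA, to 1.53% in cluster 7. Members were not kept out of this clustering, so these values are a description and carry no test.

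In both libraries 62 of 109 members were higher in the ribosome-poor cells and 26 lower, and for the other 21 the libraries differed in direction. The share of all genes is not given for these counts of direction, nor for those by class below. They therefore do not show anything particular to the members. The median log2 ratio of ribosome-poor to other clusters was 0.29 over the members and 0.13 over all genes with at least 100 UMIs. With the 1.5-fold limit met in both libraries, 16 members were higher (14.7%), beside 9.38% of all genes, and 3 were lower (2.75%), beside 12.9%. When ribosomal protein and mitochondrial genes were left out of the totals, 12 were higher and 3 lower, and the share of all genes is not given there.

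All 8 carriers of sodium, potassium, calcium and chloride were higher in ribosome-poor cells in both libraries, also with the other totals, and 5 of them passed the limit (3 with those totals). Slc8a1 had 2589 CPM in ribosome-poor and 1611 in other control cells (1.61-fold, 1.54 to 1.67), and 2420 and 1295 CPM in the 4E-BP1–cKO library (1.87-fold, 1.73 to 2.01). Slc24a1, the potassium-dependent exchanger NCKX1, known from rod photoreceptors, had 102 and 34.03 CPM in the control (2.99-fold, 2.34 to 3.85) and 77.2 and 34.2 CPM in the 4E-BP1–cKO library (2.26-fold, 1.42 to 3.58). It was also among the 10 leading genes of cluster 2, which are ranked by fold after the clustering and so give no separate support for this ratio. Also past the limit were its relative Slc24a3 (1.58-fold in the control and 1.67-fold in the 4E-BP1–cKO library) and Slc8b1 (1.72 and 1.61), which extrudes calcium from mitochondria. The 5 acid and base carriers were higher in both libraries as well, with Slc9a9 (1.60 and 1.65) and the Golgi exchanger Slc9a8 (2.01 and 2.48) among those past the limit.

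Of the 18 amino acid carriers, 16 were higher in both libraries (15 with the other totals) and 2 passed the limit, the light chain Slc7a6 (1.66 and 2.24) and the lysosomal exporter Slc36a1 (1.65 and 1.76). Slc3a2, the heavy chain that Slc7a6 needs at the surface, was the one lower in both, with 192 against 231 CPM in the control (0.83-fold, 0.73 to 0.95) and 198 against 274 CPM in the 4E-BP1–cKO library (0.72-fold, 0.57 to 0.90). The number of Slc3a2 UMIs per Slc7a5 UMI ran from 0.92 to 2.05 over the 4 ribosome-poor clusters of the control library and from 1.58 to 3.85 over the other 5, so the ranges overlapped, with the highest values in clusters 3 and 6. Other members past the limit were both phosphate importers, Slc20a1 (1.68 and 2.02) and Slc20a2 (1.90 and 2.22), the zinc transporter Slc30a5 (1.65 and 2.29), the carnitine transporter Slc22a5 (1.79 and 2.92), Slc10a7 (1.61 and 1.83) and Slc7a6os (1.60 and 2.92).

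The 3 lower members were Slc25a4, Slc25a5 and Slc50a1, a sugar transporter of the SWEET family. Slc25a5 had 112 CPM in ribosome-poor and 235 in other control cells (0.48-fold, 0.40 to 0.56), and 121 and 280 CPM in the 4E-BP1–cKO library (0.43-fold, 0.32 to 0.57). Slc25a4 had 26.5 and 77.6 CPM in the control (0.34-fold, 0.24 to 0.47) and 41.6 and 89.5 CPM in the 4E-BP1–cKO library (0.46-fold, 0.28 to 0.75). Both ADP/ATP carriers, which swap ATP made in mitochondria for cytosolic ADP, were thus lower together. Slc50a1 had 11.5 against 31.2 CPM in the control (0.37-fold, 0.21 to 0.60), and for 4E-BP1–cKO cells 3 UMIs in ribosome-poor clusters against 47 in the others (0.16-fold, 0.03 to 0.48). The mitochondrial family did not move as one: 9 of its 20 members were higher in both libraries and 7 lower. The 8 of them that span under 20 kb had a median log2 ratio of -0.80, with 6 lower in both libraries and 1 higher, and the 12 longer ones had 0.34, with 8 higher and 1 lower.

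**Figure D3:**
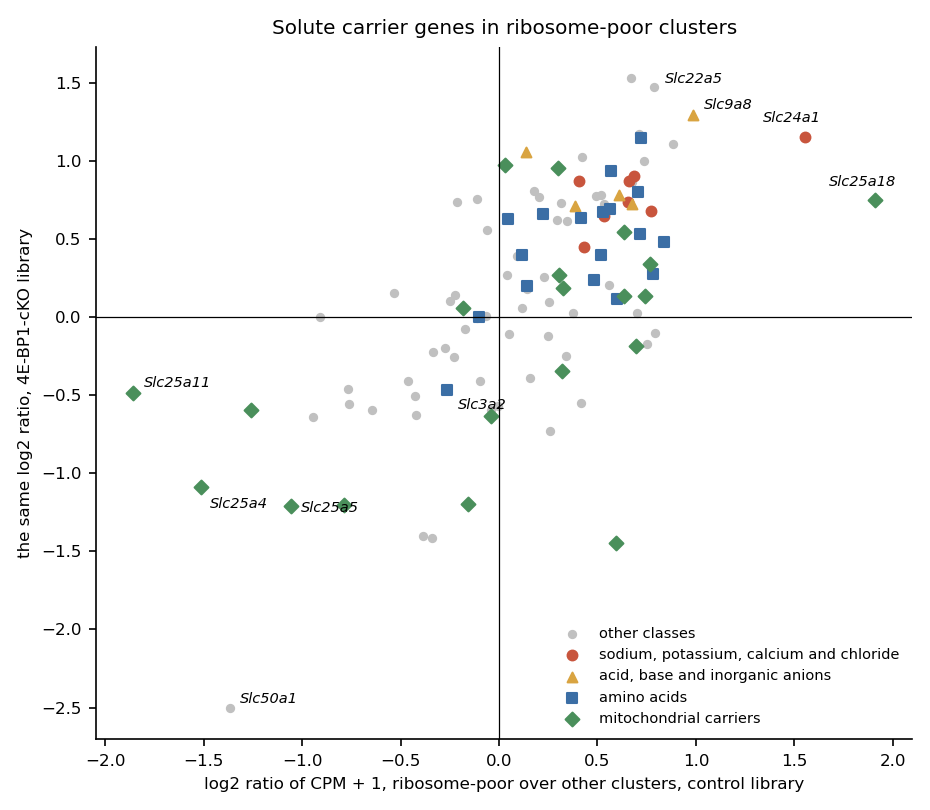
Log2 ratio of CPM + 1 in ribosome-poor over other clusters for each of 109 solute carrier genes, in the control library (horizontal axis) and the 4E-BP1–cKO library (vertical axis), by transport class. All 8 carriers of sodium, potassium, calcium and chloride lie above 0 on both axes, and the mitochondrial carriers spread from Slc25a11 and Slc25a4 on the low side to Slc25a18 on the high side.

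Depth and gene length moved with this contrast. Ribosome-poor cells had a median of 2330 UMIs and other cells 5604 in the control, and 1956.5 and 4683 in the 4E-BP1–cKO library. Malat1, a nuclear RNA, took 4.91% of UMIs in ribosome-poor and 2.75% in other control cells, and 4.82% and 3.20% in 4E-BP1–cKO cells. Over both libraries, the 8 microglial markers summed to between 4453 and 6967 CPM in the 4 ribosome-poor clusters. In the other 5 clusters they summed to between 8677 and 14085 CPM. The median log2 ratio was -0.24 for members that span under 20 kb, 0.46 for 20 to 60 kb and 0.48 for at least 60 kb, beside -0.52, 0.15 and 0.47 over all genes. The 16 higher members spanned from 10.5 to 561 kb, 2 of them under 20 kb, and the 3 lower members from 2.35 to 3.90 kb. The part of depth, nuclear RNA, marker level and gene length in these ratios was not tested.

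Promoter windows, from 250 bases before to 50 after a start site, were taken from RefSeq (GRCm38.p6, the build of mm10) for the 86 members that matched by symbol. A GC box, GGGCGG on either strand, lay in a window of 66 of the 86 members (76.7%), beside 38.2% of 27025 genes of all kinds, expressed or not. It lay in all 3 members lower in ribosome-poor cells and in 7 of the 12 higher members that had a window. The CLEAR element TCACGTGA, read by the lysosomal regulator TFEB, was found in 3 members (3.49%, beside 1.12% of the same 27025 genes), Slc25a36, Slc35a5 and Slc36a1. The amino acid response element TGATGNAA was found in 4 (4.65%, beside 4.51%), Slc7a7, Slc9a9, Slc49a4 and Slc50a1, and not in the windows of Slc3a2, Slc38a2 or Slc7a1. These matches are letters in a window and say nothing of binding or of motifs outside the window. The members were chosen for at least 100 UMIs, and the motif shares of all genes at that limit are not given. The windows of 4 members are shown because they passed the limit between ribosome-poor and other cells: the most abundant gene, the lysosomal exporter that holds a CLEAR element, and both ADP/ATP carriers. They lie at chr17:81738338-81738637 on the minus strand for Slc8a1, which holds no GC box, at chr11:55204090-55204389 on the plus strand for Slc36a1, with its CLEAR element in capitals, at chr8:46211013-46211312 on the minus strand for Slc25a4 and at chrX:36795347-36795646 on the plus strand for Slc25a5, with their GC boxes in capitals (read as CCGCCC in Slc25a5), all written 5′ to 3′ on the strand of the gene.
Slc8a1: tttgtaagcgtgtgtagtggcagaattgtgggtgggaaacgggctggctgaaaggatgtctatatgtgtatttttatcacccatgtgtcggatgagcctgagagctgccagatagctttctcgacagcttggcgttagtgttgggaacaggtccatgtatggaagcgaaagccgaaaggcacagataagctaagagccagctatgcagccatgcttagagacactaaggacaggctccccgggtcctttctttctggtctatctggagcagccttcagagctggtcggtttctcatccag
Slc36a1: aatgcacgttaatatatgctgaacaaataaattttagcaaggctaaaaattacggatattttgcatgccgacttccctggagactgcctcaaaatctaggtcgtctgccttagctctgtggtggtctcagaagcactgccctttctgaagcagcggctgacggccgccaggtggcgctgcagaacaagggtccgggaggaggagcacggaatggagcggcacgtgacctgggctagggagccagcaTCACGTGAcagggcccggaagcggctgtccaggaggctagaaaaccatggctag
Slc25a4: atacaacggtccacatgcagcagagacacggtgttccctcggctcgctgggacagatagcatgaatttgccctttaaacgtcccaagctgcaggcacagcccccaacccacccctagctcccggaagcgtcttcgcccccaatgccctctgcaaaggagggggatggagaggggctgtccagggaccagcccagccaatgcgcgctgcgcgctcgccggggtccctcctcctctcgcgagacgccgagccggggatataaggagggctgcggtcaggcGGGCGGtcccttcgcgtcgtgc
Slc25a5: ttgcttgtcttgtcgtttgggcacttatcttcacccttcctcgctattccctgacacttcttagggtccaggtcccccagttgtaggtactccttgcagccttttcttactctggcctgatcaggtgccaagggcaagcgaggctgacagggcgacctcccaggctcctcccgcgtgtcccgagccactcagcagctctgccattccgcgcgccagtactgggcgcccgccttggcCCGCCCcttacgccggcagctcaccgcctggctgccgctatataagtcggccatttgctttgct

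The 20 members with over 1000 UMIs differed among single clusters as well. Of these, 9 had their lowest level in cluster 9 in both libraries, and 9 had their highest level in the same cluster in both. Slc16a10 peaked in cluster 7, at 1281 CPM in the control and 954 in the 4E-BP1–cKO library, and was lowest in cluster 9, at 153 and 130 CPM. Slc12a2, the chloride importer NKCC1, also peaked in cluster 7, at 451 and 658 CPM. Slc37a2 was highest in cluster 8, at 347 CPM in the control and 997 in the 17 4E-BP1–cKO cells of that cluster, and lowest in cluster 6, at 87.5 and 114 CPM. Slc25a3, the phosphate carrier that feeds ATP synthase, was the one abundant member with its peak in the ribosome-rich cluster 9, at 346 and 293 CPM. Cluster 4 was shallow, with a median of 785 UMIs, and held 391 CPM of oligodendrocyte and 496 CPM of endothelial markers. Leaving it out changed the count of members higher in ribosome-poor cells from 16 to 18, and the share of all genes is not given for that setting.

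**Figure D4:**
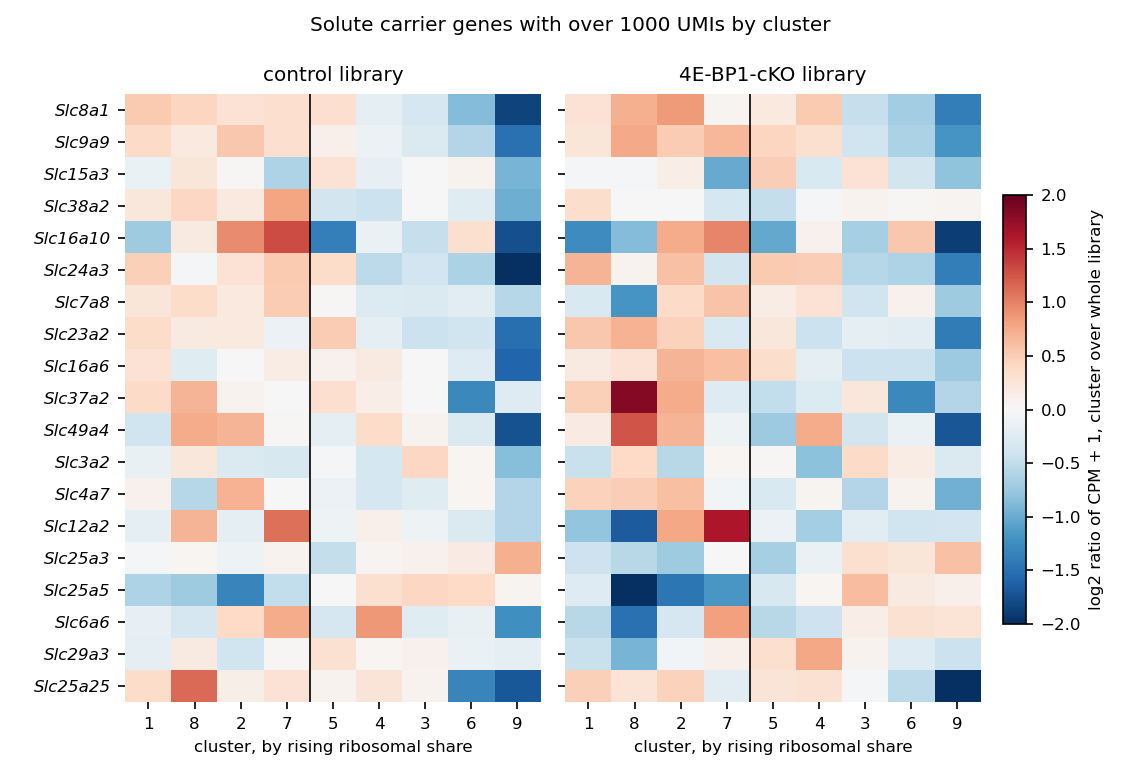
Log2 ratio of CPM + 1 in each cluster over the whole library, for 19 of the 20 solute carrier genes with over 1000 UMIs, in the control (left) and the 4E-BP1–cKO library (right). Clusters are ordered by ribosomal share, with the 4 ribosome-poor clusters left of the line, and cluster 9 at the right edge is the lowest for 9 genes in both libraries.

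Some library ratios differed between the 2 kinds of cells. For Slc37a2 the 4E-BP1–cKO library had 435 and the control 258 CPM in ribosome-poor cells, and 213 and 192 CPM in the others. Slc16a6, of the monocarboxylate transporter family, had 384 and 265 CPM in ribosome-poor cells, and 225 and 230 CPM in the others. Slc38a2 had 627 and 896 CPM in ribosome-poor cells, and 579 and 590 CPM in the others. The libraries lay further apart in ribosome-poor cells for these 3 genes, upward for Slc37a2 and Slc16a6 and downward for Slc38a2. These are examples, and other members differed too. Slc25a3 had 140 and 207 CPM in ribosome-poor cells, and 218 and 214 CPM in the others. For Slc7a7 the libraries lay further apart outside the ribosome-poor cells, at 82.2 and 106 CPM, against 131 and 124 CPM within them. Members of either kind were not counted, and the difference between the 2 kinds of cells was not tested. Over all members the median log2 ratio of the libraries was -0.06 within ribosome-poor and -0.04 within other clusters.

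Immediate early genes such as Fos, Jun and Egr1 are induced within minutes, also by handling of cells. The cells outside the ribosome-poor clusters were ranked within each library by the share of their UMIs on 20 early-response genes. None of these is a member, and beside immediate early genes the list holds others, such as the heat shock genes Hspa1a and Hspa1b and the chemokine genes Ccl3 and Ccl4. The ranked cells were cut into 3 equal parts. The top and bottom parts held 171 cells each in the control and 82 each in the 4E-BP1–cKO library. Between them 2 members were higher past the limit in both libraries (1.83%), beside 3.29% of all genes, and 5 were lower (4.59%), beside 3.33%. The median log2 ratio was -0.08 over the members and -0.15 over all genes. Without the shallow cluster 4, 1 member was higher and 2 were lower. The top parts were also deeper, with median UMIs of 6022 against 4701 in the control and 5076.5 against 3052.5 in the 4E-BP1–cKO library. Their median ribosomal share was higher too, at 6.37% against 5.23% in the control and 7.43% against 5.10% in the 4E-BP1–cKO library. Clusters differed in median early-gene share, with 4.50% in cluster 3 and 3.70% in cluster 6 but 1.56% in cluster 5. The role of depth, ribosomal share and cluster was not tested. Gene length moved with this contrast too: the 30 members of at least 60 kb had a median log2 ratio of -0.38, beside -0.37 over all genes of that length.

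Slc1a5 was the higher of the 2 in counts, with 16.6 CPM in the bottom and 51.3 in the top part of the control (3.09-fold, 1.75 to 5.78) and 15.7 and 53.6 CPM in the 4E-BP1–cKO library (3.42-fold, 1.28 to 11.5). Slc35f5, a family member of unknown cargo, had 18.7 and 36.4 CPM (1.95-fold, 1.09 to 3.62) in the control and 12.5 and 46.9 CPM (3.74-fold, 1.26 to 14.97) in the 4E-BP1–cKO library, the latter from 4 and 21 UMIs. Other amino acid carriers were higher by less than the limit in one library or both. Slc38a2 had 1.27-fold (1.13 to 1.44) in the control and 1.45-fold (1.19 to 1.78) in the 4E-BP1–cKO library, Slc3a2 1.33-fold (1.11 to 1.60) and 1.33-fold (1.01 to 1.77), and the cationic carrier Slc7a1 1.4-fold (0.95 to 2.08) and 2.61-fold (1.22 to 6.202). Slc5a3, which imports the osmolyte myo-inositol, had 2.22-fold (1.61 to 3.08) and 1.54-fold (0.87 to 2.80). Of the 18 amino acid carriers, 7 were higher and 7 lower in both libraries, so the class had no common direction.

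Among the 5 lower members were the monocarboxylate transporter Slc16a7 (0.64-fold in the control and 0.36-fold in the 4E-BP1–cKO library), the zinc transporter Slc30a9 (0.59 and 0.50), the S-adenosylmethionine carrier Slc25a26 (0.48 and 0.36) and Slc2a3, with 7 against 20 UMIs in the control and 1 against 7 in the 4E-BP1–cKO library. Slc8a1 was lower by a like amount in both libraries, at 0.70-fold (0.65 to 0.75) and 0.70-fold (0.61 to 0.79), short of the limit.

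**Figure D5:**
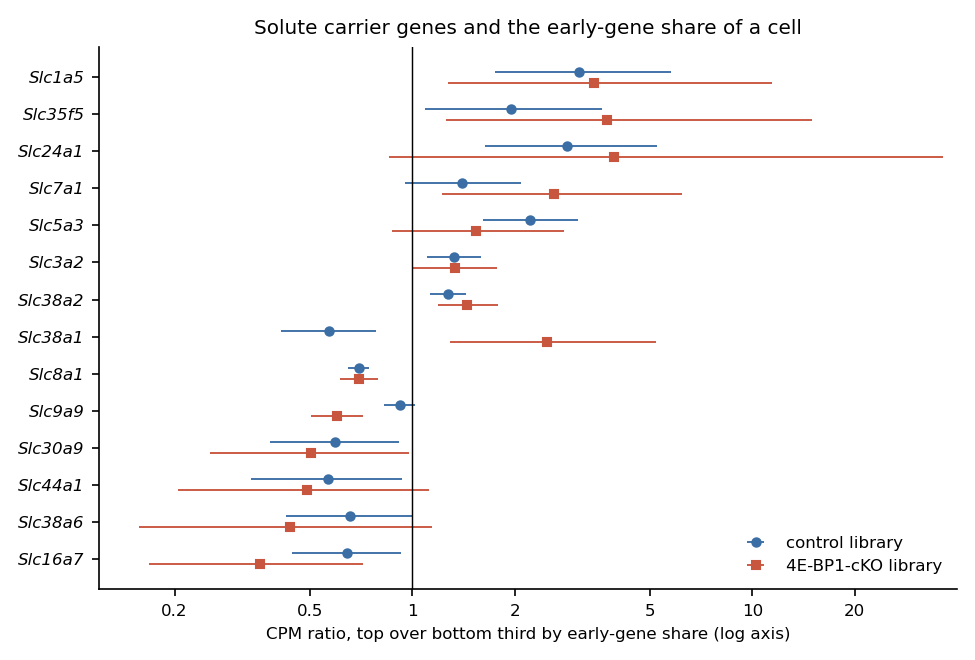
Ratio of CPM in the top over the bottom part of cells ranked by early-gene share (log axis), outside the ribosome-poor clusters, for 14 solute carrier genes in the control library (circles) and the 4E-BP1–cKO library (squares). Bars are exact Poisson 95% intervals, and those of Slc1a5 and Slc35f5 lie above 1 in both libraries while those of Slc38a1 lie on opposite sides of 1.

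Carriers outside the set were described by the same ratio, from a list of 34 genes that held other transporter families and the 6 names left out. Of these, 15 had at least 100 UMIs, and none of the 15 passed the 1.5-fold limit with an interval that leaves out 1 in either direction. Among the 19 with fewer UMIs, Slco1a4 (41 UMIs in the control and 0 in the 4E-BP1–cKO library), Slco1c1 (30 and 1) and Sfxn5 (68 and 11) were past it downward. The UMIs of Slco1a4 came from 5 cells and those of Slco1c1 from 7. Slco2b1, an organic anion transporter, was the most abundant of the list, with 380 CPM in the control and 348 in the 4E-BP1–cKO library (0.92, 0.83 to 1.004). The iron exporter Slc40a1 had 130 and 89.4 CPM (0.69, 0.57 to 0.82), the phosphate exporter Xpr1 168 and 125 CPM (0.74, 0.64 to 0.86), and Mpc2, of the mitochondrial pyruvate carrier, 43.9 and 58.2 CPM (1.33, 1.04 to 1.69).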

How the data were processed

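UMI counts per gene and barcode of 2 libraries were used as deposited. The authors made them with Cell Ranger (8.0.1 in the file headers) against mm10, and the counts were not normalized. As in the study, barcodes with 300 or fewer genes or with mitochondrial UMIs at or above 5% were removed (69 control, 29 4E-BP1–cKO), leaving 1147 and 445. The study also removed doublets with scDblFinder and reported fewer cells in both groups than were kept here. Doublets called by Scrublet (scanpy 1.11.5; 4 control and 11 4E-BP1–cKO) were kept in the main analysis. Cells were clustered in Seurat 5.3.0 (sctransform 0.4.2, R 4.3.3) with SCTransform, RPCA integration, 20 principal components and a resolution of 1.4. UMIs were summed per library or cell group and given as CPM, with exact conditional Poisson 95% intervals for ratios and a pseudocount of 1 CPM for log2 ratios. No p-value is given, since each group is 1 library. Called means over 1.5-fold with an interval that leaves out 1, in both libraries for contrasts between cells. Ribosome-poor clusters have a median ribosomal share under 3%.

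The members, gene lists and classes were chosen with earlier results of these data known. Genes named are the 10 most abundant, the most abundant of each class, the 5 highest and lowest of each contrast among members with at least 200 UMIs, those at the 100-UMI limit, a list of carriers known from microglia or the cord, and related carriers. Other members past a limit, Slc49a4, Slc4a1ap, Slc25a36, Slc35a5, Slc38a1, Slc8a2, Slc25a11 and Slc25a18 were named after their values were seen. Sites and roles were assigned from general knowledge. Of the members, 2 are counted in all totals but are not reported here by name.

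On UMI counts simulated for 7184 genes with 200 changed 2-fold between the libraries, 97% of the changed and 0.931% of the unchanged genes were past the limit. Intervals held the simulated ratio for 95.9% of genes. With 1 library per group the spread between preparations is unknown, so these shares are not error rates for the real libraries. Python 3.11.15 with numpy 2.4.6, scipy 1.17.1, pandas 2.3.3 and matplotlib 3.10.9 was used, and edgeR 4.0.16 for the TMM factors of an alternative.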

Additional observations from a re-analysis of the deposited data

Results flagged for a closer look

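Slc38a1, a sodium-coupled neutral amino acid transporter of the plasma membrane, moved in opposite ways in the 2 libraries between the cells with high and low early-gene share, ranked and cut into 3 equal parts. Its log2 ratio of the top to the bottom part was -0.80 in the control library, from 110 to 62.5 CPM (67 against 106 UMIs), and 1.29 in the 4E-BP1–cKO library, from 37.6 to 93.8 CPM (42 against 12 UMIs). The difference between the libraries was not tested, since each genotype is 1 library, and the 1% of cells with the most Slc38a1 held 21.2% of its UMIs.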

How the results depend on the processing

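No paired analysis was possible because each group is 1 library and the labels give no replicate numbers, and no replicate could be left out. No value past the 1.5-fold limit changed direction under the alternatives run, but 98 of 1628 log2 values under alternatives had the other sign than the value reported, all of them from values under that limit. They include the median early-gene ratio of the members (0.01 with each cell's CPM averaged, -0.08 otherwise), the library ratio of Slc1a5 (-0.34 as a geometric mean within clusters, 0.33 otherwise) and those of Slc16a6 and Slc25a3 outside the ribosome-poor clusters (-0.03 and 0.03, against 0.17 and -0.11 over all cells). The median log2 library ratio over the members stayed between -0.10 and -0.04 except for the geometric mean of ratios within the 9 clusters, which gave -0.28 with 4 members higher and 28 lower in place of 2 and 3. That mean weighs all clusters alike, and the 4E-BP1–cKO cells of cluster 8 held 30085 UMIs, against 161507 in the control. The part of this low depth in the -0.28 and the 28 was not tested. At the lower fold limit tried there were 5 higher and 17 lower members between the libraries, 28 higher members in ribosome-poor cells (16 at 1.5) and 5 higher with the early-gene share (2 at 1.5). Averaging each cell's CPM gave 15 members lower in the 4E-BP1–cKO library and 3 lower with the early-gene share (5 otherwise). A minimum of 200 UMIs left 0 higher between the libraries. Within ribosome-poor clusters 4 were higher and 9 lower, and within the others 5 were lower. With 2 equal parts of the ranked cells instead of 3 the early-gene contrast gave 1 higher and 2 lower, and with the share taken from 1000 UMIs per cell 2 lower. Removing barcodes called by Scrublet, or a mitochondrial limit of 10%, left 1 higher there. Of the alternatives chosen after seeing the data, leaving out cells with 3 markers of another type gave 6 lower between the libraries, and leaving out the shallow cluster 4 gave 5 lower there and 1 higher and 2 lower with the early-gene share. The counts of members past the limit between the libraries and with the early-gene share therefore rest on few genes near it. In ribosome-poor cells 12 to 18 were higher and 3 or 4 lower under the alternatives run on that contrast at 1.5-fold. That range does not cover a minimum of 200 UMIs, since Slc50a1, 1 of the 3 lower members, had 167 UMIs. The cause of the changes under other settings was not tested beyond the fewer cells or genes that a setting leaves. Shares of all genes are not given for the counts under other settings. These counts therefore do not show anything particular to the members.

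Without the most abundant member of each class, the shares of member UMIs in the control and the 4E-BP1–cKO library were 10.9% and 9.86% for sodium, potassium, calcium and chloride, 17.9% and 17.97% for amino acids, 3.45% and 3.55% for acid and base, 7.68% and 8.12% for mitochondrial carriers, 1.34% and 1.14% for peptides, 3.24% and 2.94% for vitamins and choline, 3.79% and 3.92% for metals, 1.83% and 1.68% for sugars, 2.12% and 2.07% for nucleotide sugars, 1.07% and 1.08% for monocarboxylates, 0.431% and 0.517% for phosphate and sulfate, 0.252% and 0.291% for organic ions, 0.235% and 0.279% for nucleosides and 0.35% and 0.482% for the non-carriers. Depth limits the rarer members: a count of 0 allows up to 0.625 CPM in the control and 1.73 in the 4E-BP1–cKO library. For Slc2a3, with 105 UMIs, the interval of the library ratio ran from 0.38 to 1.07.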
